A study of Homo sapiens with 18 samples.

Results

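The genes of fatty acid synthesis, desaturation and elongation were described across the tumours of a xenograft study. They were chosen by name, as the acetyl-CoA suppliers, the carboxylase, the synthase, the desaturases, the elongases and 1 activating enzyme of the pathway. Earlier results of these data were known when they were chosen. The set holds 10 of the 25343 human genes counted: ACLY, ACSS2, ACACA, FASN, SCD, FADS1, FADS2, ELOVL5, ELOVL6 and ACSL3. All 10 had enough counts to enter the tests. In tumours given DS55980254, 3 of them (ACSS2, FASN and SCD) rose at both doses, by 1.48-fold to 2.27-fold. Of all genes tested, 0.419% rose at 10 mg/kg and 0.568% at 30 mg/kg. At 10 mg/kg ACSS2 also passed in all 29 alternative settings, FASN in 24 and SCD in 15. ACLY, ACACA and ACSL3 joined these 3 genes at both doses once the 1 shallow library was left out. In that fit 0.742% of all genes rose at 10 mg/kg and 0.983% at 30 mg/kg. Of the 29 settings, ACLY passed in 3 at 10 mg/kg and 4 at 30 mg/kg, ACACA in 2 and 3, and ACSL3 in 2 and 10. FADS1, FADS2, ELOVL5 and ELOVL6 did not pass the test at either dose, with or without that library.

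The tumours were grown in mice from HCT116 PTDSS2-KO cells, that is, human colon cancer cells of the HCT116 line with PTDSS2 knocked out. Mice were given oral vehicle, 10 mg/kg DS55980254 or 30 mg/kg DS55980254, in 0.5% methylcellulose, and tumours were taken at 24 hours. Each of the 3 groups had 6 libraries of total RNA, all with the same genotype, so no comparison sets knockout against intact cells. The title of the series concerns inhibition of PTDSS1 in cells that have lost PTDSS2. Both genes encode phosphatidylserine synthases. The labels name 1 knockout of 1 cell line, give no strain or age of the mice, and do not say that each tumour came from its own animal. The p-values therefore measure the spread between libraries, and such tumours also hold host cells.

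Cells make fatty acids in the cytosol by joining units of acetyl-CoA. ACLY frees acetyl-CoA from citrate and ACSS2 makes it from acetate, ACACA carboxylates it to malonyl-CoA, and FASN builds palmitate from malonyl-CoA. SCD puts the first double bond into saturated chains, ELOVL6 and ELOVL5 lengthen chains, and FADS1 and FADS2 desaturate polyunsaturated ones. ACSL3 couples free fatty acids to coenzyme A so that they can enter phospholipids and lipid droplets. Many of these genes are known targets of the SREBP transcription factors, which SREBF1 and SREBF2 encode. INSIG1 retains the SREBP escort SCAP in the endoplasmic reticulum when sterols are plentiful. Tumours of the colon are known to make fatty acids at a high rate.

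Counts assigned to human genes totalled 3435435 to 8538793 in 17 libraries and 433989 in 10 mg/kg replicate 2. That library correlated with the others at 0.725 on average, against 0.942 to 0.954 for the remaining 17, so results at 10 mg/kg are given with and without it. PTDSS2 itself had 4.97 to 13.9 CPM (counts normalised to library size) over the 18 libraries, and counts per gene do not show whether these transcripts carry the knockout. Of 9 colon epithelial markers, VIL1, LGALS4 and CDH17 had a group median under 1 CPM, and the summed level of the 9 lay between 4000 and 7250 CPM. Of 10 adipocyte markers, 7 had a group median under 1 CPM, FABP4 and CIDEA had a median of 0 in every group, and the summed level was 39.0 to 42.7 CPM with vehicle, 32.1 to 94.1 CPM at 10 mg/kg and 34.8 to 50.5 CPM at 30 mg/kg. The 8 skin and sebaceous markers, led by keratins that epithelial tumours can also express, summed to 128 to 267 CPM with vehicle, 219 to 421 CPM at 10 mg/kg and 202 to 335 CPM at 30 mg/kg, with LORICRIN at a median of 0 in every group. Fibroblast, endothelial and leukocyte markers summed to 61.8 to 109, 5.49 to 16.9 and 8.09 to 12.9 CPM with vehicle and 69.3 to 92.5, 5.30 to 19.7 and 7.90 to 13.4 CPM at 30 mg/kg. In 10 mg/kg replicate 2 the summed markers of all 5 other cell types were the highest of the 10 mg/kg group, at 317 CPM for fibroblasts, 94.1 for endothelium and 72.7 for leukocytes, against 73.1 to 106, 6.07 to 22.9 and 9.91 to 15.9 CPM in the other 5 libraries. Its epithelial markers summed to 4000 CPM, against 5040 to 7250 CPM in those 5. The part of these differences in any gene's value was not tested. In bulk tumour RNA, fewer cells of a type and less RNA per cell cannot be told apart. All these markers are human genes, and how reads were divided between human and mouse is not stated. The sums are therefore no measure of the host cells.

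The start regions are shown for SCD and ACSS2, which rose, ACLY, which rose once the shallow library was left out, and ELOVL5, which did not pass, so that their letters can be set side by side. RefSeq's table held windows for 9 of the 10 genes, all but FASN. Each line gives the 250 bases before a RefSeq transcript start on GRCh38.p14, read 5′ to 3′ on the gene's strand, and capitals mark CCAAT on either strand (ATTGG where it lies on the other one). For ACSS2 and ACLY the start is the first of 2 in the table, and the second window of ACSS2 held no CCAAT. The tumours' own start sites were not measured.
SCD, chr10:100346983-100347232, plus strand: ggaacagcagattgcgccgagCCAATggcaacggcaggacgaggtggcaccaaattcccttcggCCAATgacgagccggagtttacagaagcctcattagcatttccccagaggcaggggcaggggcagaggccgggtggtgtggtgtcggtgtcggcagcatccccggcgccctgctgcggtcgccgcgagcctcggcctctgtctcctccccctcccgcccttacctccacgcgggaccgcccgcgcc
ACSS2, chr20:34874739-34874988, plus strand: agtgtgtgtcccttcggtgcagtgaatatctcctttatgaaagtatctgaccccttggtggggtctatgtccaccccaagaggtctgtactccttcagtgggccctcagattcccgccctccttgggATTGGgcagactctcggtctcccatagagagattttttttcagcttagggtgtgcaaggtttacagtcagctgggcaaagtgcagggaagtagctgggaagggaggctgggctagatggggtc
ACLY, chr17:41919023-41919272, minus strand: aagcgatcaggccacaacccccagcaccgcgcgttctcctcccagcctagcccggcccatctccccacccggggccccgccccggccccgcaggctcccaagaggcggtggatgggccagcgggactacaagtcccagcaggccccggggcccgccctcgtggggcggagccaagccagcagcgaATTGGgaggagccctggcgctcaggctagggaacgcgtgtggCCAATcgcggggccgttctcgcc
ELOVL5, chr6:53348951-53349200, minus strand: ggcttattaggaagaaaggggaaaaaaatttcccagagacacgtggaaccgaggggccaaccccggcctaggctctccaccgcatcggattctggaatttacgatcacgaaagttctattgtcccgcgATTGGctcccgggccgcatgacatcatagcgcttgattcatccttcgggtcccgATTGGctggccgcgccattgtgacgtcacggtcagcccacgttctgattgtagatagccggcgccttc

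CCAAT began 229 and 186 bases before the start in SCD, 123 bases before it in ACSS2, 65 and 23 bases before it in ACLY, and 122 and 68 bases before it in ELOVL5. Searched on both strands of windows of 300 bases (250 before a start and 50 after), CCAAT was found in at least 1 window of 7 of the 9 genes, against 34.6% of the 35116 windows in the table. A GC box (GGGCGG) was found for 8 of the 9 genes, against 45.0% of all windows, and the E-box CACGTG for ELOVL5 alone, against 7.26%. The sterol element TCACNCCAC was in no window of the 9 genes and in 1.13% of all windows, and TGATGNAAT, the C/EBP-ATF response element, was in none of theirs and in 0.991% of all. These motifs do not contain one another. Genes with several windows had more bases searched, and a missing motif says only that these letters are not in these windows.

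With vehicle, the genes spanned a wide range of transcript abundance, given per length as TPM (transcript abundance scaled to the library) in the mean ± SD of 6 libraries. FASN stood at 382 ± 29.5 TPM and SCD at 349 ± 42.7 TPM, and their ranges overlapped. ACLY followed at 132 ± 3.30 TPM and ACACA at 82.0 ± 1.77 TPM, each apart from its neighbours in every library. ACSL3 (55.4 ± 3.65 TPM), ELOVL5 (52.0 ± 8.63), FADS1 (35.5 ± 6.57), ACSS2 (25.9 ± 4.74) and ELOVL6 (21.8 ± 4.05) formed a run in which each overlapped the next. FADS2 was the lowest at 10.3 ± 1.93 TPM, below every value of ELOVL6.

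**Figure D1:**
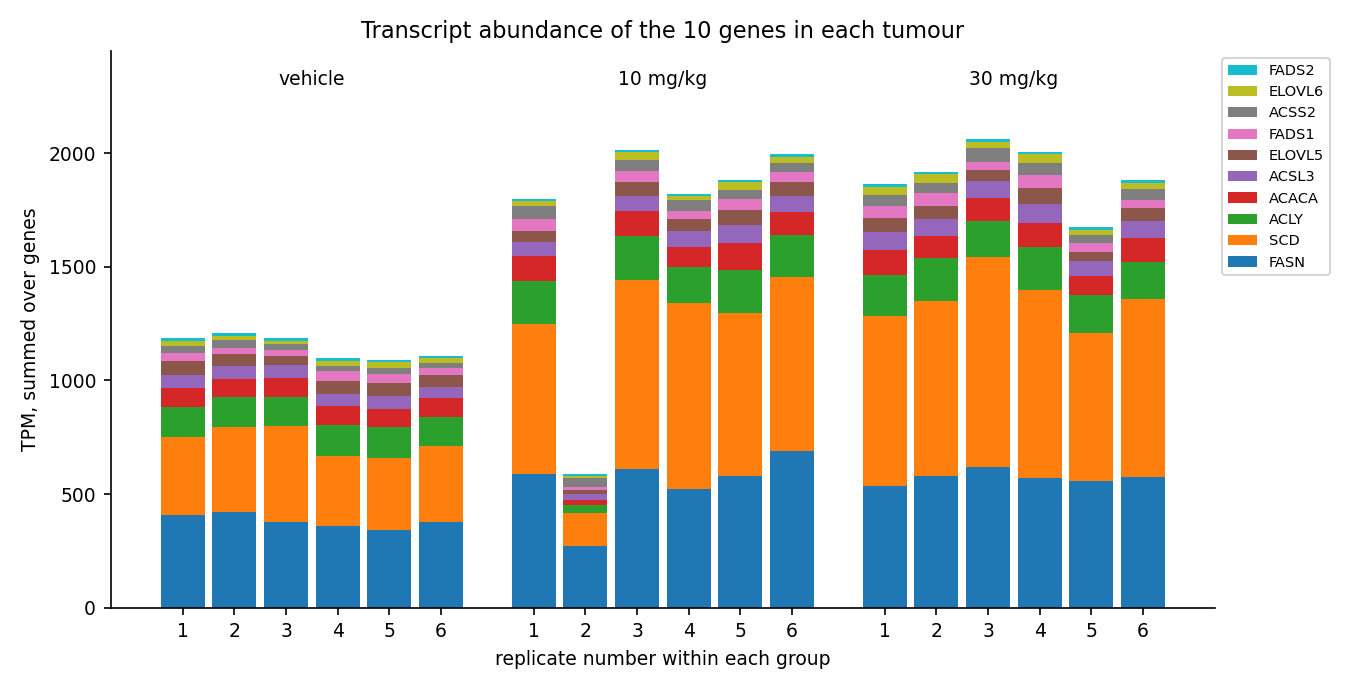
Stacked bars give the TPM of each of the 10 genes in each tumour, by group and replicate number. FASN and SCD made up most of every bar, and the sum ran from 1088.3 to 1206.6 TPM with vehicle and from 1676.3 to 2060.1 TPM at 30 mg/kg, with 10 mg/kg replicate 2 at 589.9 TPM.

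The summed abundance of the 10 genes was 1676.3 to 2060.1 TPM at 30 mg/kg (median 1897), against 1088.3 to 1206.6 TPM with vehicle (median 1147). At 10 mg/kg it was 1798.3 to 2012.5 TPM in 5 libraries and 589.9 TPM in replicate 2. Every treated library but that one thus lay above every vehicle library. FASN and SCD dominate this sum, so it follows those genes more than the others.

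Acetyl-CoA supply was described first. ACLY (Entrez gene 47), ATP citrate lyase, had a lowest, median and highest level of 281, 285 and 293 CPM with vehicle, 126, 392 and 423 CPM at 10 mg/kg, and 358, 388 and 413 CPM at 30 mg/kg. All 6 libraries at 30 mg/kg and 5 of 6 at 10 mg/kg were above every vehicle library, and 10 mg/kg replicate 2 was below all of them. ACLY was 1.24-fold of vehicle at 10 mg/kg (95% confidence interval 0.980 to 1.57, adjusted p = 0.578) and 1.35-fold at 30 mg/kg (1.07 to 1.71, adjusted p = 0.428), and passed at neither. These are estimates of edgeR's quasi-likelihood test on 1 fit of all 18 libraries, with p-values adjusted by Benjamini-Hochberg over 14074 genes and a threshold of 0.05. With 10 mg/kg replicate 2 left out, ACLY rose 1.38-fold at 10 mg/kg (adjusted p = 0.000496) and 1.35-fold at 30 mg/kg (adjusted p = 0.000545). The 30 mg/kg libraries are the same in both fits, and leaving out the shallow library changed the shared estimate of the spread and the number of genes tested (14145).

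ACSS2 (Entrez gene 55902), the acetyl-CoA synthetase of cytosol and nucleus, was 31.1, 36.5 and 48.8 CPM with vehicle (lowest, median, highest), 57.1, 71.5 and 90.5 CPM at 10 mg/kg, and 58.1, 72.4 and 91.8 CPM at 30 mg/kg. No treated library reached down to the vehicle range. In 10 mg/kg replicate 2 it stood at 85.6 CPM, within the 57.1 to 90.5 CPM of the other 5, unlike ACLY. That value rests on an expected count of 40. In TPM ACSS2 stood at 37.11 there, below the 40.4 to 59.65 TPM of those 5 and above the vehicle maximum of 33.3 TPM. It rose 1.87-fold at 10 mg/kg (95% confidence interval 1.53 to 2.28, adjusted p = 0.00111) and 1.93-fold at 30 mg/kg (1.59 to 2.35, adjusted p = 0.000392). Its rise at 10 mg/kg was 1.83-fold without that library (adjusted p = 0.000406). ACSS2 passed at both doses under all 29 alternatives, with adjusted p up to 0.00577 when any 1 library was left out.

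The committed steps came next. ACACA (Entrez gene 31), acetyl-CoA carboxylase 1, was 376, 399 and 422 CPM with vehicle, 169, 498 and 543 CPM at 10 mg/kg, and 429, 503 and 523 CPM at 30 mg/kg. In CPM the 30 mg/kg group lay above the vehicle group without overlap, and the 10 mg/kg group did so in 5 of 6 libraries. In TPM 1 library at 30 mg/kg, replicate 5, lay just below the vehicle range, at 79.61 against 79.66 to 84.68 TPM. It was 1.13-fold of vehicle at 10 mg/kg (0.888 to 1.43, adjusted p = 0.774) and 1.22-fold at 30 mg/kg (0.964 to 1.55, adjusted p = 0.755), and did not pass. It rose 1.25-fold at 10 mg/kg (adjusted p = 0.0379) and 1.22-fold at 30 mg/kg (adjusted p = 0.0459) without 10 mg/kg replicate 2, the smallest rise of the genes that passed in that fit.

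FASN (Entrez gene 2194), the multifunctional synthase, had 1428, 1667 and 1782 CPM with vehicle, 1797, 2463 and 2840.0 CPM at 10 mg/kg, and 2180.0, 2471 and 2716 CPM at 30 mg/kg. In CPM the groups did not overlap, although the lowest 10 mg/kg library, again replicate 2, was close to the highest vehicle library. In TPM that library stood at 270.3, below the 343.5 to 422.0 TPM of the vehicle group, so the groups at 10 mg/kg did not stand apart on that scale. FASN rose 1.48-fold at 10 mg/kg (1.26 to 1.74, adjusted p = 0.0172) and 1.52-fold at 30 mg/kg (1.29 to 1.79, adjusted p = 0.00574). The rise at 10 mg/kg was 1.55-fold without 10 mg/kg replicate 2 (adjusted p = 2.81e-05). Leaving out vehicle replicate 5, the lowest vehicle library for this gene, ended the call at 10 mg/kg (adjusted p = 0.0746), and no single library did so at 30 mg/kg.

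**Figure D2:**
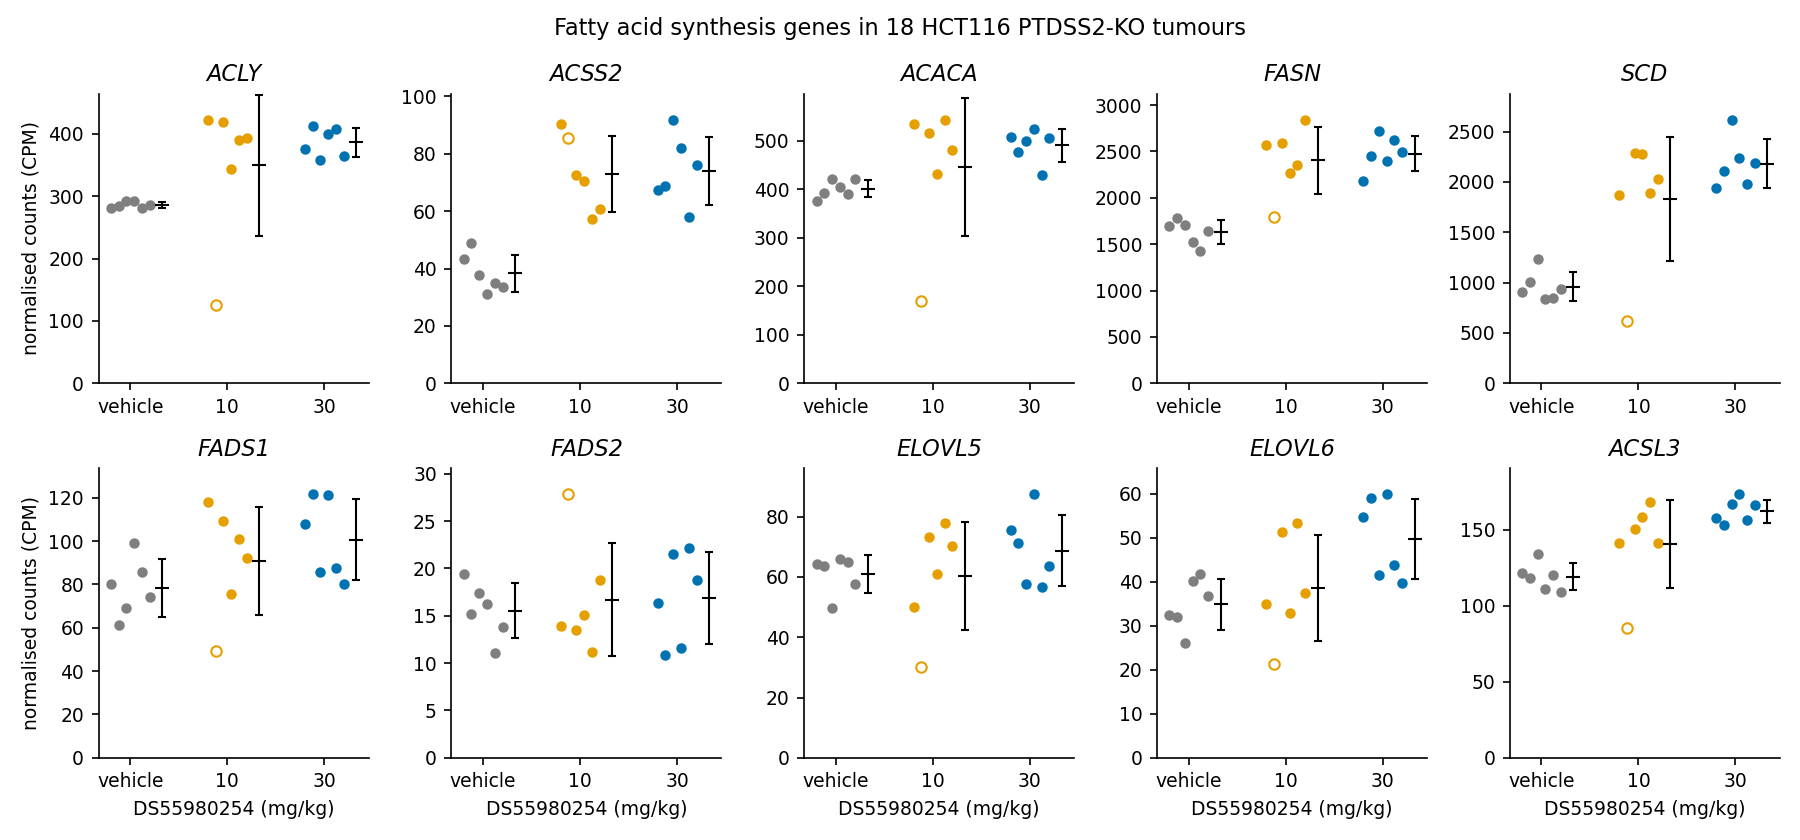
Each panel plots 1 gene in normalised counts (CPM) against dose, with 1 point per tumour and, beside each group, its mean ± SD (n = 6). The open circle is 10 mg/kg replicate 2, which is the lowest point of its group for 8 of the 10 genes. The treated points of ACSS2 and FASN and, but for that circle, of ACLY, ACACA, SCD and ACSL3 lie above every vehicle point.

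Among the desaturases, SCD moved and the FADS genes did not pass. SCD (Entrez gene 6319), the delta-9 desaturase that makes oleate and palmitoleate, was 837, 921 and 1230.0 CPM with vehicle, 622, 1959 and 2283 CPM at 10 mg/kg, and 1944, 2148 and 2617 CPM at 30 mg/kg. All 6 libraries at 30 mg/kg and 5 of 6 at 10 mg/kg were above the vehicle range, while 10 mg/kg replicate 2 was below it. SCD rose 1.91-fold at 10 mg/kg (1.43 to 2.54, adjusted p = 0.0301) and 2.27-fold at 30 mg/kg (1.70 to 3.02, adjusted p = 0.00225). Without 10 mg/kg replicate 2 the rises were 2.15-fold at 10 mg/kg (adjusted p = 7.7e-08) and 2.27-fold at 30 mg/kg (adjusted p = 1.09e-08). The call at 10 mg/kg in all libraries was near its threshold, and ended without any 1 of vehicle replicates 1, 2, 4, 5 or 6 or 10 mg/kg replicates 1, 3, 4 or 6, with adjusted p from 0.0551 to 0.0969.

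FADS1 (Entrez gene 3992), the delta-5 desaturase, was 61.4, 77.2 and 99.2 CPM with vehicle, 49.2, 96.5 and 118 CPM at 10 mg/kg, and 80.3, 97.7 and 122 CPM at 30 mg/kg. FADS2 (Entrez gene 9415), the delta-6 desaturase, was 11.03, 15.7 and 19.4 CPM with vehicle, 11.2, 14.5 and 27.8 CPM at 10 mg/kg, and 10.8, 17.6 and 22.2 CPM at 30 mg/kg. For both genes the treated groups overlapped the vehicle group. In CPM 10 mg/kg replicate 2 was the lowest of its group for FADS1 and the highest for FADS2, on expected counts of 23 and 13. In TPM that library stood at 11.91 for FADS2, below replicate 6 of the same dose at 12.71. FADS1 was 1.20-fold of vehicle at 10 mg/kg (0.966 to 1.50, adjusted p = 0.609) and 1.28-fold at 30 mg/kg (1.04 to 1.60, adjusted p = 0.507). FADS2 was 0.983-fold at 10 mg/kg (0.731 to 1.32, adjusted p = 0.989) and 1.08-fold at 30 mg/kg (0.818 to 1.44, adjusted p = 0.973) and did not pass at either dose. The values at 10 mg/kg were 1.27-fold for FADS1 (adjusted p = 0.336) and 0.933-fold for FADS2 (adjusted p = 0.926) without 10 mg/kg replicate 2. FADS1 and FADS2 lie head to head on opposite strands and overlap in RefSeq, and they were the only members with fractional counts, in 15 of 18 libraries each. Whether the counting used strand is not stated, so reads may have been split between them and both values are uncertain.

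Neither elongase passed the test. ELOVL5 (Entrez gene 60481), which lengthens polyunsaturated chains, was 49.6, 64.0 and 66.1 CPM with vehicle, 30.0, 65.5 and 77.8 CPM at 10 mg/kg, and 56.7, 67.5 and 87.3 CPM at 30 mg/kg. It was 1.04-fold of vehicle at 10 mg/kg (0.844 to 1.28, adjusted p = 0.935) and 1.13-fold at 30 mg/kg (0.919 to 1.38, adjusted p = 0.903) and 1.09-fold at 10 mg/kg without replicate 2 of that dose (adjusted p = 0.797). The groups overlapped, and rises above 1.38-fold lie outside these intervals. ELOVL6 (Entrez gene 79071), which lengthens palmitate to stearate, was 26.1, 34.7 and 41.7 CPM with vehicle, 21.4, 36.2 and 53.2 CPM at 10 mg/kg, and 39.8, 49.3 and 59.8 CPM at 30 mg/kg. At 30 mg/kg 4 of 6 libraries lay above the vehicle range and 2 within it. ELOVL6 was 1.16-fold of vehicle at 10 mg/kg (0.920 to 1.47, adjusted p = 0.709) and 1.43-fold at 30 mg/kg (1.14 to 1.79, adjusted p = 0.232). At 10 mg/kg it was 1.21-fold without replicate 2 (adjusted p = 0.569). Its 30 mg/kg value stayed short of the threshold without 10 mg/kg replicate 2 (adjusted p = 0.0706) and passed only with sample weights in limma-voom (adjusted p = 0.0325).

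ACSL3 (Entrez gene 2181), the long-chain acyl-CoA synthetase of endoplasmic reticulum and lipid droplets, was 109, 119 and 134 CPM with vehicle, 85.6, 146 and 168 CPM at 10 mg/kg, and 153, 162 and 173 CPM at 30 mg/kg. Every 30 mg/kg library and 5 of 6 at 10 mg/kg were above every vehicle library. It was 1.21-fold of vehicle at 10 mg/kg (1.04 to 1.42, adjusted p = 0.400) and 1.36-fold at 30 mg/kg (1.17 to 1.59, adjusted p = 0.0575), which did not pass. Without 10 mg/kg replicate 2 it rose 1.28-fold at 10 mg/kg (adjusted p = 0.023) and 1.36-fold at 30 mg/kg (adjusted p = 0.000931), and without vehicle replicate 3, its highest vehicle library, it passed at 30 mg/kg (adjusted p = 0.0394). At 30 mg/kg it passed in 10 of the 29 alternatives, among them DESeq2 (adjusted p = 5.77e-05), limma-voom (0.0367), scaling by DESeq2's size factors (0.0373) and a minimum of 5 CPM (0.0310).

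**Figure D3:**
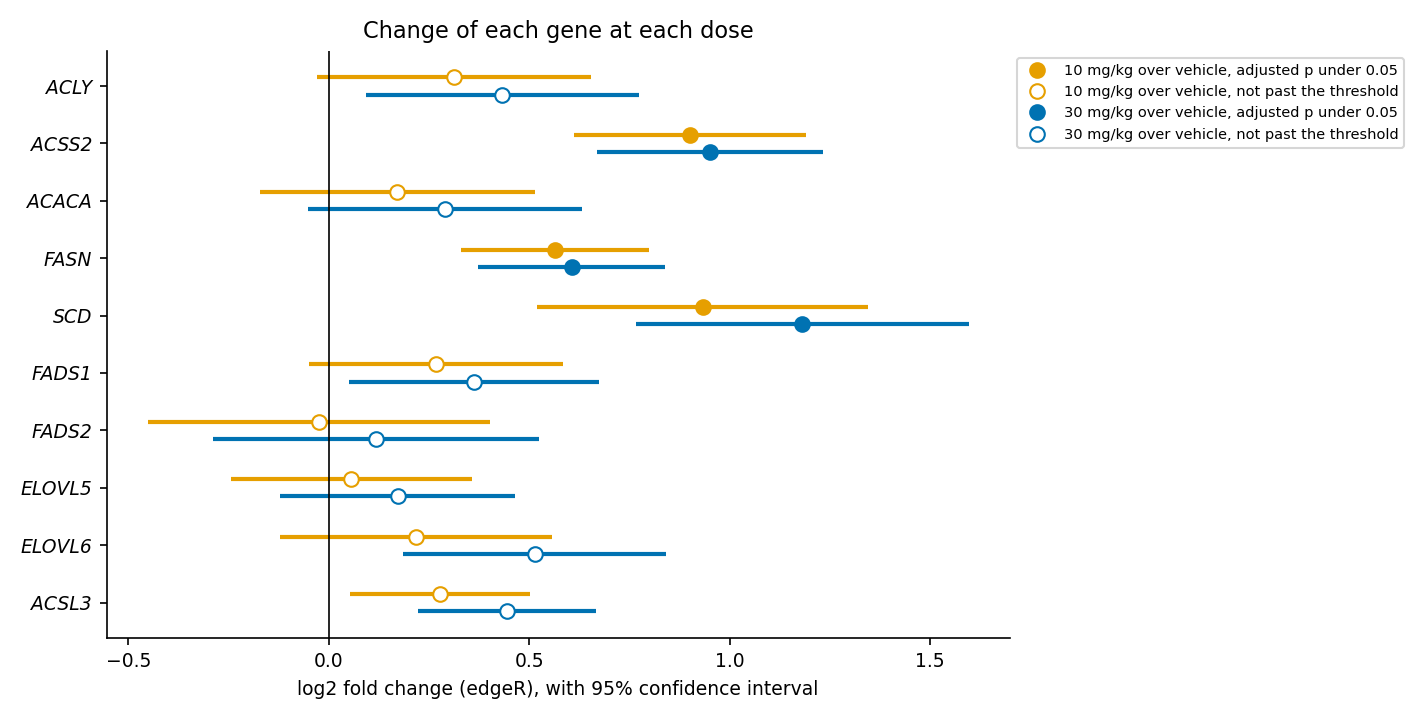
Points give the log2 fold change of each gene over vehicle from edgeR at 10 mg/kg and at 30 mg/kg, lines the 95% confidence interval, and filled points an adjusted p under 0.05. ACSS2, FASN and SCD are filled at both doses, and FADS2 at 10 mg/kg is the only point below 0.

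At 10 mg/kg against vehicle, 3 of the 10 genes rose and 0 fell, where 0.419% of all genes tested rose and 0.0497% fell. Without 10 mg/kg replicate 2, 6 of the 10 rose, against 0.742% of all genes, and without vehicle replicate 5 only ACSS2 did. In CPM the groups did not overlap for 2 of the 10 (ACSS2 and FASN), against 0.689% of genes higher in all treated libraries, and for 6 without 10 mg/kg replicate 2, against 1.31%. In TPM, a scale set beside CPM after seeing the data, they did not overlap for ACSS2 alone, and for the same 6 without that library. The median log2 fold change of the 10 was 0.27 (from -0.03 for FADS2 to 0.93 for SCD), beside -0.0064 over all genes tested. The fits with and without 1 library share the other 17 and are not separate evidence.

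At 30 mg/kg against vehicle, ACSS2, FASN and SCD again rose and 0 fell, where 0.568% of all genes rose and 0.0497% fell. Without 10 mg/kg replicate 2, ACLY, ACACA and ACSL3 rose too, making 6 of 10, against 0.983% of genes. In CPM the 30 mg/kg and vehicle groups did not overlap for those same 6 genes in all libraries, against 1.25% of genes tested, and in TPM for 5 of them, all but ACACA. The median log2 fold change was 0.44, from 0.12 for FADS2 to 1.18 for SCD, beside -0.00105 over all genes. Both doses were set against the same 6 vehicle libraries, so their values are given side by side and not as separate support.

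Between the doses no member passed the test. At 30 mg/kg against 10 mg/kg the folds of the 10 genes lay between 1.03 (FASN) and 1.23 (ELOVL6). Their adjusted p was 0.969 to 0.984, and 0% of all genes tested were called by edgeR, DESeq2 or limma-voom. In edgeR 496 of 14074 genes had an unadjusted p under 0.05, below the share of 0.05 expected with no difference. The 95% confidence interval was 0.895 to 1.58 for SCD, 0.876 to 1.21 for FASN and 0.852 to 1.26 for ACSS2. Leaving out 10 mg/kg replicate 2 gave folds of 1.05 for SCD, 0.980 for FASN and 1.05 for ACSS2. The groups at the 2 doses overlapped for every member, where 0.0568% of genes were higher in all 30 mg/kg libraries.

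**Figure D4:**
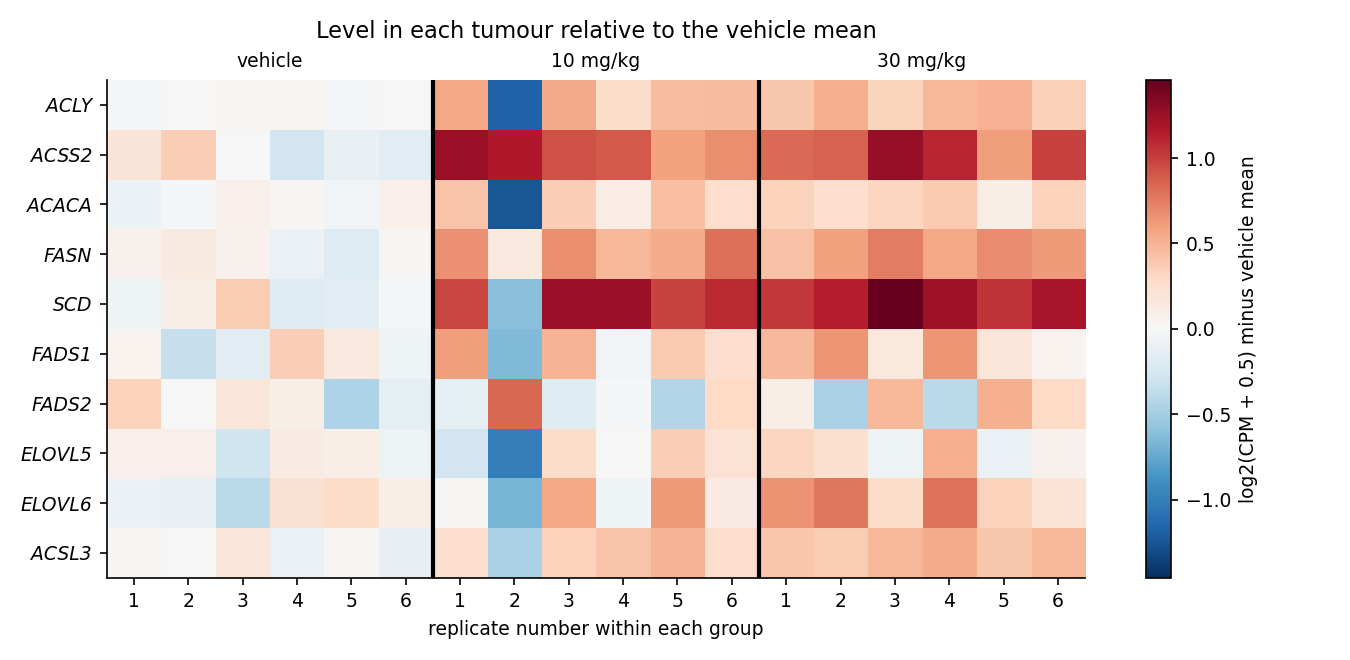
Colours give log2(CPM + 0.5) of each gene in each tumour minus its mean over the vehicle tumours, with genes in rows and tumours in columns by group. SCD and ACSS2 are the darkest red rows at both doses, and 10 mg/kg replicate 2 stands out as a blue column apart from ACSS2, FASN and FADS2.

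The balance between members is given as ratios of TPM, without a test. SCD was more abundant than FASN in all 6 libraries at 30 mg/kg, with a lowest, median and highest TPM ratio of 1.17, 1.38 and 1.50, against 1 of 6 libraries with vehicle, with ratios of 0.834, 0.881 and 1.12. At 10 mg/kg the ratio was 1.11 to 1.56 in 5 libraries and 0.538 in replicate 2. Apart from that library, the 10 mg/kg and vehicle ranges overlapped slightly, between 1.11 and 1.12, and the 30 mg/kg range lay above the vehicle range. SCD made up 28.1% to 35.8% of the summed TPM of the 10 genes with vehicle, 24.7% (replicate 2) to 44.9% at 10 mg/kg and 38.9% to 44.9% at 30 mg/kg.

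Ratios within the other pairs overlapped between groups. The TPM ratio of FADS1 to FADS2 had a median of 3.25 with vehicle, against 4.51 at 10 mg/kg and 3.71 at 30 mg/kg, and ran from 1.20 to 7.62 over all libraries. That of ELOVL5 to ELOVL6 had a median of 2.28 with vehicle, against 2.17 at 10 mg/kg and 1.82 at 30 mg/kg. FADS1 and ELOVL5 were the more abundant of their pairs in every library. With vehicle, ACLY and ACACA differed little between libraries, at a coefficient of variation of 1.78% and 4.46% of their CPM. FADS2 (18.8%) and ACSS2 (17.2%) differed more. Expected counts per vehicle library were 1149 to 1441 for ACLY and 45.37 to 86.19 for FADS2. The part of counting noise in these spreads was not tested.

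The genes whose levels followed FASN and SCD most closely were found by the root mean square difference, over 18 libraries, of log2(CPM + 0.5) centred on each gene's vehicle mean, among genes of at least 5 CPM. For FASN they were SREBF2 (0.113), LMNA, a nuclear lamina gene (0.152), and DUSP4, a phosphatase of MAP kinases (0.153). For SCD they included DHCR7 (0.212), which acts at the end of cholesterol synthesis, and FDFT1 (0.214), the squalene synthase. Over 17 libraries, without 10 mg/kg replicate 2, they included JUND (0.0810) and SREBF2 (0.108) for FASN and TSC22D3 (0.194) for SCD. SREBF2 was thus near FASN with and without the shallow library. The libraries share their scaling and depth, so these differences are a description.

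Genes around the pathway were counted in 6 lists. Their counts are set against the shares of all genes that rose (0.419% at 10 mg/kg and 0.568% at 30 mg/kg) or fell (0.0497% at each dose), and with shares this low a count of 0 in a list of 6 to 17 genes is near the background and is no result about that list. Values without 10 mg/kg replicate 2 are given beside them, an alternative chosen after seeing the data, where 0.742% of genes rose at 10 mg/kg and 0.983% at 30 mg/kg. Of 11 genes of transcriptional control, INSIG1, which retains the SREBP escort in the endoplasmic reticulum, rose 2.80-fold at 10 mg/kg (adjusted p = 1.39e-07) and 3.03-fold at 30 mg/kg (adjusted p = 2.14e-08). SREBF2 rose 1.43-fold at 10 mg/kg (adjusted p = 0.0301) and 1.50-fold at 30 mg/kg (adjusted p = 0.00617). The other 9 did not pass, among them SREBF1, the SREBP gene most linked to fatty acid synthesis, at 1.17-fold at 10 mg/kg (1.01 to 1.36, adjusted p = 0.492) and 1.19-fold at 30 mg/kg (1.03 to 1.38, adjusted p = 0.505). The median log2 fold change of the 11 was 0.09 at 10 mg/kg and 0.10 at 30 mg/kg. Without 10 mg/kg replicate 2 the genes that passed were again INSIG1 (2.81-fold at 10 mg/kg, adjusted p = 1.04e-08) and SREBF2 (1.51-fold at 10 mg/kg, adjusted p = 4.72e-05), and the median was 0.10 at both doses.

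Of the suppliers of acetyl-CoA, malonyl-CoA and NADPH, 9 of 11 could be tested and 0 passed, with a median log2 fold change of 0.24 at 10 mg/kg and 0.22 at 30 mg/kg. SLC25A1, which exports citrate from mitochondria, was 1.31-fold of vehicle at 10 mg/kg (adjusted p = 0.176) and 1.26-fold at 30 mg/kg (adjusted p = 0.266). ME1, the malic enzyme that makes NADPH, was 1.21-fold at 10 mg/kg (adjusted p = 0.526) and 1.29-fold at 30 mg/kg (adjusted p = 0.330). Both dose groups overlapped the vehicle group for these genes, and ME1 stood at 30.0 CPM in 10 mg/kg replicate 2, the lowest library of its group. Without that library IDH1, which makes NADPH from isocitrate, rose 1.39-fold at 10 mg/kg (adjusted p = 0.0468), against 1.31-fold in all libraries (adjusted p = 0.414), and at 30 mg/kg 0 of the 9 passed. The medians were then 0.32 at 10 mg/kg and 0.22 at 30 mg/kg, and ME1 was 1.27-fold of vehicle at 10 mg/kg (adjusted p = 0.157).

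Of 13 other desaturases and elongation enzymes, 11 could be tested, and HSD17B12, the ketoacyl reductase of the elongation cycle, was the only one to pass. It rose 1.58-fold at 30 mg/kg (adjusted p = 0.0205), with overlapping groups, and was 1.43-fold of vehicle at 10 mg/kg (adjusted p = 0.162). The median log2 fold change of that list was -0.05 at 10 mg/kg and 0.11 at 30 mg/kg. With 10 mg/kg replicate 2 left out, HSD17B12 was again alone in passing at 30 mg/kg and stood at 1.45-fold at 10 mg/kg (adjusted p = 0.0754), and the median at 10 mg/kg was -0.02. In the list of 11 other acyl-CoA synthetases and fatty acid transport proteins, 0 passed, with medians of 0.10 at 10 mg/kg and 0.23 at 30 mg/kg. SLC27A4, a fatty acid transport protein, was 1.16-fold at 10 mg/kg (adjusted p = 0.616) and 1.25-fold at 30 mg/kg (adjusted p = 0.407), and ACSL1, a relative of ACSL3, was 1.31-fold at 10 mg/kg (adjusted p = 0.384) and 1.26-fold at 30 mg/kg (adjusted p = 0.543). Without that library 0 passed again, with a median of -0.03 at 10 mg/kg.

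Neither mitochondrial fatty acid synthesis nor fatty acid oxidation held a gene that passed. The 6 mitochondrial synthesis genes had a median log2 fold change of -0.08 at 10 mg/kg and 0.15 at 30 mg/kg, and NDUFAB1, the acyl carrier protein, was 0.989-fold at 10 mg/kg (adjusted p = 0.992) and 1.19-fold at 30 mg/kg (adjusted p = 0.805). The reductase MECR was 0.819-fold at 10 mg/kg (adjusted p = 0.627) and 0.868-fold at 30 mg/kg (adjusted p = 0.900). Of 18 oxidation genes 17 could be tested, with medians of -0.03 at 10 mg/kg and 0.07 at 30 mg/kg. CPT1A, which commits fatty acids to oxidation, was 1.01-fold at 10 mg/kg (0.864 to 1.18, adjusted p = 0.989) and 1.14-fold at 30 mg/kg (0.975 to 1.32, adjusted p = 0.761). ETFB, an electron carrier, was 1.36-fold at 10 mg/kg (adjusted p = 0.237) and 1.30-fold at 30 mg/kg (adjusted p = 0.358). It stood at 166.8 CPM in 10 mg/kg replicate 2, against 101.5 to 111.1 CPM in the rest of that group. Without that library ETFB was 1.28-fold at 10 mg/kg (adjusted p = 0.207). In these 2 lists 0 genes passed without 10 mg/kg replicate 2, with medians at 10 mg/kg of -0.03 for mitochondrial synthesis and -0.0048 for oxidation. In all 6 lists 0 genes fell at either dose, where 0.0497% of all genes tested did, so that 0 is what the background share gives for lists of this size.

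**Figure D5:**
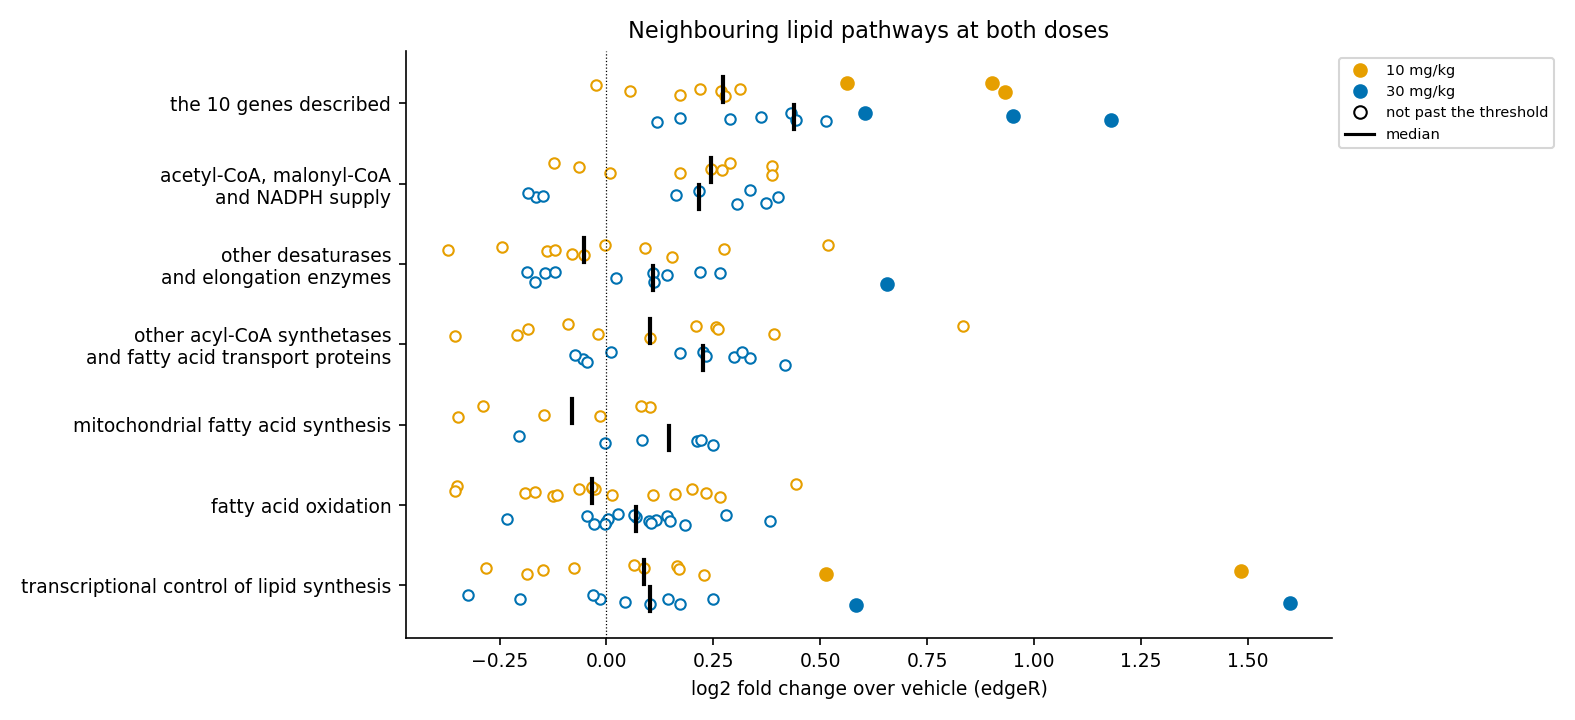
Each point is the log2 fold change over vehicle of 1 gene from edgeR, by list, for 10 mg/kg and 30 mg/kg, filled where the adjusted p was under 0.05, with short bars at the medians and a vertical scatter that only separates points. The 10 genes described have 3 filled points at each dose, transcriptional control has 2 (SREBF2 and INSIG1), and HSD17B12 is the only other filled point.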

How the data were processed

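RNA from 18 tumours, 6 per group, was sequenced by the authors as stranded total RNA from 5 ng per library, per the labels' protocols. STAR 2.4.2a and the builds hg19 and mm10 are named per the submitters' processing notes. The quantifier, the annotation, any use of strand and the division of reads between human and mouse are details not given in the sources used here. Per the file headers, the authors deposited an expected count (an estimated number of reads per gene, not scaled) and TPM (scaled by the authors to transcript length and library) for 25343 genes by Entrez ID. Gene IDs gave the symbol of 25220 genes, transcript accessions that of another 6, and 117 stayed unnamed.

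Expected counts were rounded to whole numbers and scaled by TMM. The filter on low counts (filterByExpr, 3 groups) left 14074 genes. A single robust fit of edgeR 4.0.16 (R 4.3.3) covered all 18 libraries and gave its quasi-likelihood tests, with Benjamini-Hochberg adjustment over all genes tested and a threshold of 0.05. The model was tested on simulated data. Intervals are 95% confidence intervals of the model, CPM are normalised counts, and levels between genes were compared in TPM. The precision at 10 mg/kg is limited by the library of 433989 counts, against at least 3435435 in the others.

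Alternatives were other scalings and filters, DESeq2 1.42.0, limma 3.58.1 (voom, voom with sample weights, and trend on log2(TPM + 1)), the compared groups alone, the replicate number as a block, and each library left out. The 10 genes, the 6 lists around them and the 6 marker lists were chosen with earlier results of these data known. The text names all 10 genes, from each list the genes that passed or else the 2 with the smallest p at 30 mg/kg, and genes among the 3 nearest to FASN and to SCD, of which some are not reported here. SREBF1 was named besides, after its values were seen. Promoter windows came from RefSeq's GRCh38.p14 table, which is not the build of the counts. No genome was used, so the genes' own coordinates are not given.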

Additional observations from a re-analysis of the deposited data

Results flagged for a closer look

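In 30 groups of 6 values (10 genes by 3 groups) the gap of the lowest or highest library to its neighbour was compared with Dixon's 95% critical value, which chance exceeds in about 1 in 20 groups. It was exceeded in 4, each time by 10 mg/kg replicate 2 as the lowest of its group. ACLY stood at 126 CPM there, against 344 to 423 CPM in the other 5 libraries. ACACA stood at 169 CPM, against 431 to 543 CPM. SCD stood at 622 CPM, against 1866 to 2283 CPM, and ACSL3 at 85.6 CPM, against 141 to 168 CPM. The same library has the fewest counts of the series and the highest summed markers, in human genes, of the 5 other cell types in its group. What made these genes low in it was not tested.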

How the results depend on the processing

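Over 29 alternatives, 870 fold changes of single genes were recomputed: 802 kept their direction and side of the threshold, 22 lost the call, 25 gained it and 21 changed sign, none of the last from a called value. ACSS2 passed at both doses in all 29. SCD at 30 mg/kg failed only with limma-trend on log2(TPM + 1), and FASN at 30 mg/kg with that and with no filter. At 10 mg/kg FASN failed in 5 of the 29. SCD at 10 mg/kg failed in 14, among them limma-voom (adjusted p = 0.155), no filter (0.166) and the replicate block (0.105). The causes were not tested.

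At 10 mg/kg against vehicle, 66 genes were called as reported, 32 with no filter, 158 by DESeq2, 227 by limma-voom with sample weights, 12 by limma-trend, 36 with the 2 groups alone and 31 to 121 without 1 library. Of the 10 genes, 3 were called as reported, 1 with no filter, with limma-trend or with the 2 groups alone, 5 with sample weights and 1 to 6 without 1 library. The lowest counts came without vehicle replicate 5 (31 genes) and the highest without 10 mg/kg replicate 2 (121). Vehicle replicates 1 and 2 gave 42 and 40 genes. The median log2 fold change of the 10 was 0.21 with no filter, 0.33 with sample weights, 0.085 with limma-trend and 0.24 to 0.35 without 1 library.

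At 30 mg/kg against vehicle, 87 genes were called as reported, 57 with no filter, 179 by DESeq2, 285 with sample weights, 23 by limma-trend, 191 with the 2 groups alone and 61 to 182 without 1 library (182 without 10 mg/kg replicate 2). Of the 10 genes, 3 were called as reported, 6 with sample weights or the 2 groups alone, 1 with limma-trend and 3 to 6 without 1 library. The median stayed at 0.43 to 0.45 without 1 library. Between the doses 0 genes were called throughout. The median of 0.12 became 0.16 with limma-voom, 0.075 with sample weights, 0.28 with limma-trend and 0.060 to 0.16 without 1 library.

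Chosen after seeing the data, 10 mg/kg replicates 2 and 4 and 30 mg/kg replicate 5 were left out together. Then 5 of the 10 genes were called at 10 mg/kg (median 0.40), where 96 of all genes tested (0.679%) were. At 30 mg/kg 6 of the 10 were called, where 223 of all genes tested (1.58%) were. Between the doses ACLY was -0.092, ACACA -0.047, FASN -0.082 and FADS1 -0.025 on the log2 scale.

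Other changes of sign, in log2 fold change, were at 10 mg/kg ACACA (-0.039) and ELOVL5 (-0.11) with limma-trend, and, without 1 library, FADS2 (-0.11 to 0.068) and ELOVL5 (-0.015 to 0.13). Between the doses they were FASN with library totals alone (-0.0040) and sample weights (-0.057), and, without 1 library, FASN (-0.029 to 0.084), ACLY (-0.031 to 0.17), ACACA (-0.033 to 0.18) and ACSS2 (-0.032 to 0.13).

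Replicate numbers did not pair the libraries: same-numbered libraries deviated together with correlations of -0.284 to 0.226, 3 of 18 pairs were over 0.1, and 4 of 18 correlated best with their own number. With the replicate block, 24 genes and 1 of the 10 (ACSS2) were called at 10 mg/kg, 60 genes and 3 of the 10 at 30 mg/kg, and 0 between the doses.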
